A study of Mus musculus with 12 samples.

Results

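Mouse embryonic stem cells (ESCs) that had lost the Esrrb reporter (EsrrbNeg) were compared with cells of the same line in which it was still moderately active (EsrrbMed). The comparison rests on 6 of the 12 Illumina MouseWG-6 v2 bead arrays of the series, chosen by their sample labels, 3 for EsrrbNeg and 3 for EsrrbMed. The other 6 arrays held ESCs with the strongest reporter signal (EsrrbHi) and epiblast stem cells of another line (EpiSC), and all 12 arrays entered the normalisation, the filter and the model. EsrrbHi serves below for the preceding step, from EsrrbHi to EsrrbMed. Both groups came from the line labelled E14Tg2a Esrrb-2a-GFPd-IBIH, a clonal E14Tg2a derivative in which a short-lived green fluorescent protein is joined to the end of the Esrrb coding sequence by a self-cleaving peptide and a drug resistance gene follows behind an internal ribosome entry site, so every cell of both groups carries the reporter. Cells were plated at 3000 per cm2, kept for 3 days in serum with LIF, and sorted for the stem cell surface marker SSEA-1 together with medium or no green fluorescence. The groups are thus fractions of one self-renewing culture and not cells in which Esrrb was deleted. The sort reads reporter protein, so a cell that had only just switched Esrrb off could still count as medium. For each array 100 ng of total RNA was labelled. Replicates 1 and 2 of both groups were hybridised on chip 1 and replicate 3 on chip 2.

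Esrrb encodes an orphan nuclear receptor that works beside Nanog, Klf4 and Tfcp2l1 in the transcription factor network of the naive state, the state of the epiblast before implantation. Cultures in serum and LIF are mixed. They hold cells in a naive state with all of these factors and cells closer to the epiblast after implantation. In the latter Pou5f1 and Sox2 remain while Fgf5 and Pou3f1 come up. The study reports that EsrrbHi and EsrrbMed cells interconverted after replating, while EsrrbNeg cells hardly regained Esrrb. The step from EsrrbMed to EsrrbNeg is the one in which Esrrb transcript drops to near the limit of detection, so it asks what else has changed in cells that have all but stopped expressing this factor while they still carry a surface marker of ESCs.

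Values below are normalised log2 intensities, given in the order of replicates 1, 2 and 3. Changes are log2 differences, EsrrbNeg minus EsrrbMed, ± standard error (SE) from a limma model with a term for chip, n = 3 arrays per group. Rose and fell are used only of features with a Benjamini-Hochberg adjusted p of at most 0.05 and a change of at least 1.5-fold over the 11089 features tested. An offset of 16 was added to each intensity after background correction, so the changes of weak genes are understated. Where a gene was detected on no array of a group (detection p over 0.01), its difference is given as at least a fold, the mean of the other group over the lowest level at which a probe counted as detected. In these bulk samples a change in every cell and a change in the share of cells that express a gene cannot be told apart. The labels do not say what separates the replicates, which the study describes as independent experiments, and the p-values speak only of variation among these 12 arrays.

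The 6 arrays had 13333 to 15393 of 45281 probes detected and median intensities of 83.7 to 97.9, and their 95th percentiles ran from 407 to 974. Arrays of one group correlated at 0.986 to 0.995 and arrays of different groups at 0.967 to 0.978. Markers of the labelled cell type were detected in both groups, though not all at the same level. Sox2, Nanog and Zfp42 were detected on all 6 arrays but fell in EsrrbNeg, with values given below. Pou5f1, the gene of OCT4, without which naive and primed cells alike lose pluripotency, was 11.16, 11.14 and 11.48 in EsrrbMed and 10.92, 11.33 and 11.21 in EsrrbNeg, and of 16 shared pluripotency genes on the array 12 to 13 were detected on each of the 6 arrays. Of 20 primitive endoderm markers 6 to 7 were detected on each EsrrbMed array and 6 to 9 on each EsrrbNeg array, of 27 neural markers 6 to 8 and 9 to 10, of 16 fibroblast markers 4 and 5 to 6, and of 15 trophectoderm markers 3 to 6 and 7 to 9. The defining markers Gata4, Gata6, Sox17 and Sox7 of primitive endoderm, Sox1 and Pax6 of neural precursors and Col1a1, Col1a2 and Col3a1 of fibroblasts were detected on none of the 6 arrays. Of the trophectoderm markers Elf5 and Hand1 were also detected on none. Cdx2, however, was detected on no EsrrbMed array and on all 3 EsrrbNeg arrays and rose. Other markers on the same lists were detected and rose in EsrrbNeg, among them Dab2, Lrp2 and Amn, Nes and Kif1a, and Mmp2 and Twist1. The values of these and of Cdx2 are given below. The part of such cells in these values was not tested.

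Esrrb, at chromosome 12, 86361117-86521628 of GRCm38.p6, was 11.30, 11.18 and 11.32 in EsrrbMed and 5.80, 5.61 and 5.50 in EsrrbNeg. Its fall of 49.6-fold was set by the sort and is no finding, but it checks the labels on every array. The transcript was still detected on all 3 EsrrbNeg arrays. Between the 2 groups 635 features rose (5.73% of those tested) and 684 fell (6.17%), 1319 in all (11.9%), and 242 of the calls were probes without a gene name. Among the calls 416 passed 2-fold, 167 up (1.51%) and 249 down (2.25%), and the largest changes were falls, with 35 past 4-fold against 10 rises. Of the calls 93 were rises of features detected on no EsrrbMed array and 61 were falls of features detected on no EsrrbNeg array. The share of rises among the calls, 48.1%, was 36.7% with quantile normalisation without background correction (158 rose, 272 fell) and 37.5% in the log2 table of the authors (159 rose, 265 fell). The EsrrbMed and EsrrbNeg arrays did not overlap for 1290 of the 1319 calls, against 38.1% of all features tested (20.3% higher and 17.8% lower in EsrrbNeg). Calls were picked for changes that are large against the spread of the same arrays, so this separation follows largely from the selection. Without EsrrbNeg replicate 3, whose streak genes are described below, 1148 of the 1319 features kept their call.

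Most naive factors fell in this step. Of 24 listed, 23 passed the filter on low values and 17 of these fell, where 6.17% of all features did. Their median change was −1.66, against 0.01 over all features tested. Esrrb is one of the 17, and Nr0b1 was the member that did not pass the filter. Without EsrrbNeg replicate 3 the falls numbered 16, as Ooep lost its call (−1.23, adjusted p = 0.0678). The other lists of genes given below are read in the same way, as counts and medians beside those of all features, and no list was tested as a set. Over all features 5.73% rose and 6.17% fell, and every list count stands against these shares. A gene undetected in EsrrbMed or in EsrrbNeg passed the filter only through a group in which every array detected it. This can raise the counts of rises or falls in a list.

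Zfp42, which encodes the naive marker REX1, was 10.69, 10.58 and 10.69 in EsrrbMed and 7.54, 7.48 and 6.84 in EsrrbNeg. Its EsrrbNeg arrays lay below every EsrrbMed array by more than 3 log2 units, with replicate 3 the lowest. It fell 10.3-fold (−3.37 ± 0.15, adjusted p = 8.80e-09). Tfcp2l1, a factor through which LIF acts on self-renewal, was 9.37, 8.99 and 9.44 in EsrrbMed and 6.35, 5.96 and 6.09 in EsrrbNeg and fell 8.76-fold (−3.13 ± 0.13, adjusted p = 4.31e-09). Tcl1, a coactivator of the kinase AKT, was 9.16, 8.99 and 9.38 in EsrrbMed and 5.93, 6.0 and 6.23 in EsrrbNeg. All 3 EsrrbNeg arrays of both genes stayed close to 6 while the EsrrbMed arrays stayed close to 9. Tcl1 fell 8.68-fold (−3.12 ± 0.10, adjusted p = 3.52e-10). Klf4, the Krüppel-like factor used in reprogramming, was 7.66, 7.22 and 7.68 in EsrrbMed and 4.81, 4.53 and 5.39 in EsrrbNeg and was detected on 2 of the 3 EsrrbNeg arrays. It fell 6.10-fold (−2.61 ± 0.24, adjusted p = 4.23e-06), with EsrrbNeg replicate 3 the highest of its group. Fbxo15, an F-box gene under control of OCT4 and SOX2, was 11.20, 11.02 and 11.25 in EsrrbMed and 9.19, 8.91 and 8.28 in EsrrbNeg. It fell 5.13-fold (−2.36 ± 0.20, adjusted p = 2.46e-06) and its arrays did not overlap, with EsrrbNeg replicate 3 the lowest.

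The largest of the other falls in the list, given here to account for its members, were in Klf2 (−2.35), Nr5a2 (−2.15) and Jam2 (−2.01). The 6 members that were not called were Prdm14, undetected in EsrrbNeg, Pecam1 (−0.53), Dppa2 (−0.49), Dppa4 (−0.32), Dppa5a (−0.21) and Gbx2 (0.03).

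Nanog, the homeodomain factor that sustains self-renewal, was 9.98, 9.79 and 10.56 in EsrrbMed and 8.30, 7.77 and 8.53 in EsrrbNeg. The groups did not overlap, and Nanog fell 3.75-fold (−1.91 ± 0.17, adjusted p = 2.86e-06), less than Zfp42 or Tfcp2l1. Sox2, the partner of OCT4, was 8.45, 8.77 and 8.37 in EsrrbMed and 7.82, 8.38 and 7.57 in EsrrbNeg. The highest EsrrbNeg array reached the lowest EsrrbMed array, replicate 3, and the fall of 1.53-fold (−0.61 ± 0.18, adjusted p = 0.0206) was lost without EsrrbNeg replicate 3 (−0.51, adjusted p = 0.106). A second probe of Sox2 changed by −0.54 and was not called. Pou5f1 changed by −0.11 ± 0.11, adjusted p = 0.517, which did not pass the test. Of 13 shared pluripotency genes that passed the filter, Sox2 fell and Lin28b, a repressor of let-7 microRNAs, rose (0.72 ± 0.10, adjusted p = 9.07e-05), so 2 of 13 were called, against 11.9% of all features.

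**Figure D1:**
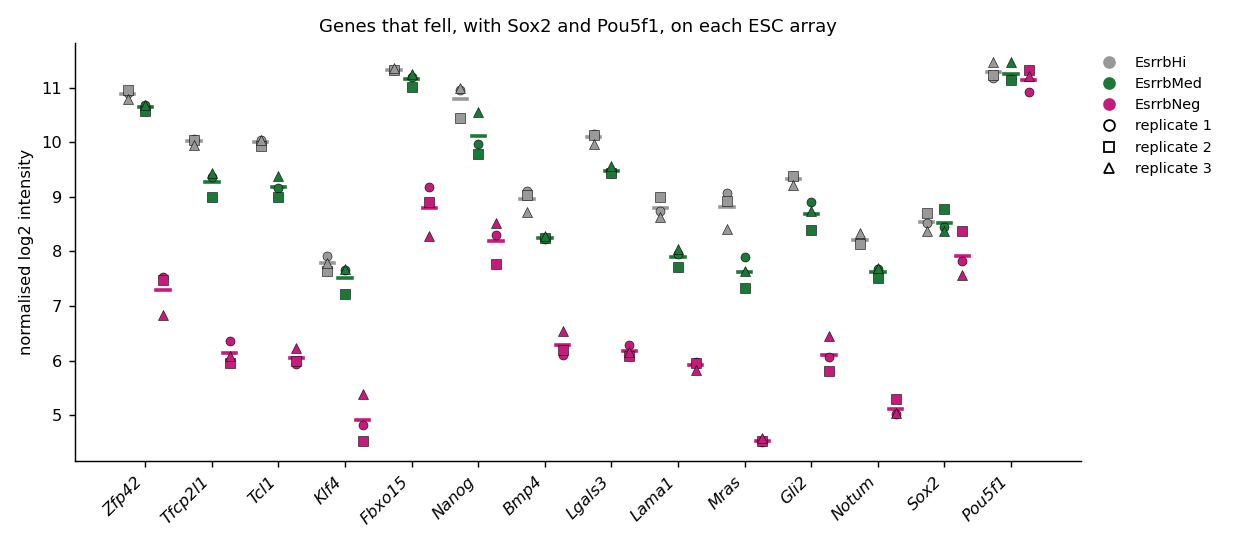
Normalised log2 intensity (vertical axis) of 12 genes that fell, and of Sox2 and Pou5f1, on the 9 ESC arrays. Each point is an array, grey for EsrrbHi, green for EsrrbMed and magenta for EsrrbNeg, its shape gives the replicate, and bars are means of 3 arrays. The EsrrbNeg arrays of Tfcp2l1 lie between 5.96 and 6.35, below its lowest EsrrbMed array at 8.99, while those of Pou5f1 lie between 10.92 and 11.33, among the EsrrbMed arrays.

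LIF works through the kinase JAK1 and the factor STAT3, and 7 of its genes fell while none rose. Of 16 pathway genes and targets 7 passed the test (43.8%, where 6.17% of all features fell). Among these 7, Tfcp2l1, Klf4 and Klf5 are also on the naive list and were counted there. The median change of the 16 was −0.38. Bcl3, an IκB protein induced by STAT3, was 6.59, 6.69 and 6.54 in EsrrbMed and 5.79, 5.81 and 5.50 in EsrrbNeg and fell 1.87-fold (−0.90 ± 0.10, adjusted p = 1.37e-05). Socs3, which encodes the feedback inhibitor of LIF signalling, fell 1.64-fold (−0.71 ± 0.13, adjusted p = 0.00115), and the Krüppel-like factor Klf5 fell 1.63-fold (−0.70 ± 0.14, adjusted p = 0.00209). Cish, another SOCS gene, was near the threshold (−0.61 ± 0.11, adjusted p = 9.82e-04) and passed it no longer without EsrrbNeg replicate 3 (−0.50, adjusted p = 0.0101). The same held for the kinase gene Pim3 (−0.50, adjusted p = 0.0183). This left 5 of the 7 falls, those of Bcl3, Socs3 and the genes shared with the naive list. Stat3 itself changed by −0.17 (adjusted p = 0.21). Genes such as Stat3 that are given here and below as not called were picked for their roles after their values had been seen.

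Of the 15 largest falls 10 were genes outside the naive list. Lgals3, which encodes the carbohydrate-binding protein galectin-3, was 9.44, 9.44 and 9.56 in EsrrbMed and 6.29, 6.08 and 6.15 in EsrrbNeg. The gap between the groups was over 3 log2 units, a fall of 9.89-fold (−3.31 ± 0.09, adjusted p = 7.0e-11). Mras, a GTPase of the RAS family, was 7.89, 7.33 and 7.64 in EsrrbMed and 4.50, 4.52 and 4.57 in EsrrbNeg and was detected on no EsrrbNeg array. It was at least 7.90-fold lower there (adjusted p = 3.44e-07). Lrrc34, a leucine-rich repeat gene, was 8.57, 8.37 and 8.75 in EsrrbMed and 5.17, 5.30 and 5.75 in EsrrbNeg. Its EsrrbNeg arrays lay between 5.17 and 5.75, a fall of 8.92-fold (−3.16 ± 0.13, adjusted p = 4.31e-09). Mylpf, a myosin light chain of fast muscle, fell 7.95-fold (−2.99 ± 0.21, adjusted p = 4.21e-07) and Krt42, a type I keratin, 6.17-fold (−2.62 ± 0.10, adjusted p = 3.17e-09).

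The other falls among the 15 largest included regulators of signalling. Gli2, a transcription factor that answers Hedgehog, was 8.90, 8.40 and 8.74 in EsrrbMed and 6.06, 5.81 and 6.45 in EsrrbNeg and fell 5.95-fold (−2.57 ± 0.17, adjusted p = 2.07e-07). Notum, a secreted enzyme that inactivates Wnt ligands, was 7.68, 7.51 and 7.69 in EsrrbMed and 5.02, 5.30 and 5.04 in EsrrbNeg and fell 5.68-fold (−2.51 ± 0.13, adjusted p = 3.85e-08). Its other probes changed by −0.89 (called) and −0.55 (not called). Mreg, the melanoregulin gene, and Acsbg3, an acyl-CoA synthetase of the bubblegum family, fell, with changes of −2.46 and −2.45. Hmces, which encodes a protein that shields abasic sites in DNA, fell as well (−2.38). Only genes without overlap between the groups could enter the 15, so the separation of their arrays is no result.

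Of 25 matrix and integrin genes that passed the filter 6 fell and 2 rose, with a median change of −0.23, and the other 17 were not called. The rise of Lgals1 was lost without EsrrbNeg replicate 3 (0.55, adjusted p = 0.0334). After Lgals3 the largest falls were in 2 parts of the basement membrane, the laminin chain Lama1 and the laminin-binding protein Nid1. Lama1 was 7.95, 7.72 and 8.04 in EsrrbMed and 5.97, 5.96 and 5.83 in EsrrbNeg and fell 3.95-fold (−1.98 ± 0.13, adjusted p = 2.86e-07). Nid1 was detected on every EsrrbMed array and on none of EsrrbNeg, where it was at least 2.90-fold lower (adjusted p = 1.21e-05). The integrin subunits moved both ways, Itgb7 (−1.11) and Itga9 (−0.92) down and Itga3, a partner in laminin receptors, up (1.18 ± 0.20, adjusted p = 6.19e-04).

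Among genes of the epiblast after implantation 8 rose and 8 were not called in this step. Of 17 primed epiblast genes that passed the filter, out of 21 on the array, the 8 that rose made up 47.1% and 1, Sall3, fell, where 5.73% of all features rose. The median change was 0.55, or 0.53 with the 2 genes undetected in EsrrbMed at their bound. Without EsrrbNeg replicate 3 the count was 9 up and 1 down, and it was 3 up and 0 down in limma both with quantile normalisation without background correction and in the log2 table of the authors.

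Fgf5, the growth factor that marks the epiblast after implantation, was 4.52, 4.65 and 4.80 in EsrrbMed and 7.21, 6.95 and 8.76 in EsrrbNeg. It was undetected on every EsrrbMed array and detected on every EsrrbNeg array, where it was at least 7.63-fold higher (adjusted p = 1.34e-06). EsrrbNeg replicate 3 was the highest by more than 1.5 log2 units. The rise was kept without it (adjusted p = 1.58e-07). Pou3f1, a POU factor also called OCT6, was 7.64, 8.45 and 7.88 in EsrrbMed and 10.36, 10.44 and 10.38 in EsrrbNeg and rose 5.29-fold (2.40 ± 0.20, adjusted p = 1.79e-06). It was already detected on every EsrrbMed array, and its 3 EsrrbNeg arrays differed by under 0.1. Sox11, a SoxC factor, was 7.67, 8.09 and 7.78 in EsrrbMed and 9.11, 9.16 and 9.28 in EsrrbNeg and rose 2.52-fold (1.33 ± 0.12, adjusted p = 3.69e-06). Sall2, a spalt zinc finger factor, was 4.98, 5.35 and 5.15 in EsrrbMed and 6.39, 6.24 and 6.71 in EsrrbNeg and rose 2.44-fold (1.29 ± 0.14, adjusted p = 1.69e-05). For neither did the groups overlap. Car14, a membrane carbonic anhydrase, rose 2.33-fold (1.22 ± 0.18, adjusted p = 2.09e-04), although a dimmer probe of the gene changed by 0.05. Other members stayed below the threshold, among them Otx2, the factor that opens enhancers of the primed state (0.53, adjusted p = 0.0584), and Dnmt3b, a de novo DNA methyltransferase, whose change was under 1.5-fold (0.55, adjusted p = 5.09e-04).

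The 15 largest rises held further genes of neurons and cell polarity. Kif1a, a kinesin that carries synaptic vesicle precursors, was 5.79, 6.03 and 5.83 in EsrrbMed and 8.71, 8.35 and 8.59 in EsrrbNeg and rose 6.35-fold (2.67 ± 0.11, adjusted p = 4.31e-09). Each EsrrbNeg array lay more than 2 log2 units above each EsrrbMed array. Nes, which encodes the intermediate filament nestin, was 4.35, 4.88 and 4.60 in EsrrbMed and 6.39, 6.36 and 7.04 in EsrrbNeg. It was detected on 1 of 3 EsrrbMed arrays and on all of EsrrbNeg, and rose 3.96-fold (1.99 ± 0.18, adjusted p = 3.05e-06). Prickle1, a planar cell polarity protein, was 5.04, 5.26 and 5.08 in EsrrbMed and 7.41, 7.36 and 8.25 in EsrrbNeg and rose 5.85-fold (2.55 ± 0.22, adjusted p = 2.02e-06), with EsrrbNeg replicate 3 again the highest. Of 27 neural and neuronal genes on the array 10 passed the filter and 4 of these rose, Kif1a, Nes, the Iroquois factor Irx3 (0.91 ± 0.15, adjusted p = 3.90e-04) and the growth cone protein gene Gap43 (0.71 ± 0.12, adjusted p = 4.70e-04). Sox1, Pax6 and 13 more were detected on no EsrrbNeg array, and the summed linear intensity of the list was 1203 to 1350 on the EsrrbMed arrays and 1514 to 1792 on those of EsrrbNeg.

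Zfp608, a zinc finger gene, was 4.95, 5.57 and 4.94 in EsrrbMed and 7.49, 7.32 and 7.44 in EsrrbNeg and rose 4.81-fold (2.27 ± 0.18, adjusted p = 1.07e-06), but its other probe changed by only 0.38. Cxcl12, the chemokine that attracts cells bearing CXCR4, was 5.90, 6.34 and 6.10 in EsrrbMed and 7.82, 8.17 and 8.25 in EsrrbNeg and rose 3.90-fold (1.96 ± 0.17, adjusted p = 3.13e-06). The ephrin receptor gene Epha1 was 4.53, 5.10 and 5.57 in EsrrbMed and 6.96, 7.09 and 7.53 in EsrrbNeg and rose 4.37-fold (2.13 ± 0.18, adjusted p = 1.53e-06). The 15 largest rises, like the falls, were taken only from genes whose groups did not overlap. The guidance molecules as a list gave 4 rises and 1 fall among 19, the ligand Efna5 (1.65 ± 0.15, adjusted p = 3.58e-06) next after Epha1. The remaining genes among the 15 largest rises were Car4, a carbonic anhydrase anchored in the membrane (2.00), the scavenger receptor gene Scarf2 (1.94), Pdzrn3, a ubiquitin ligase with PDZ domains (1.89), and Chst1, a sulfotransferase that acts on keratan sulfate (1.86).

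**Figure D2:**
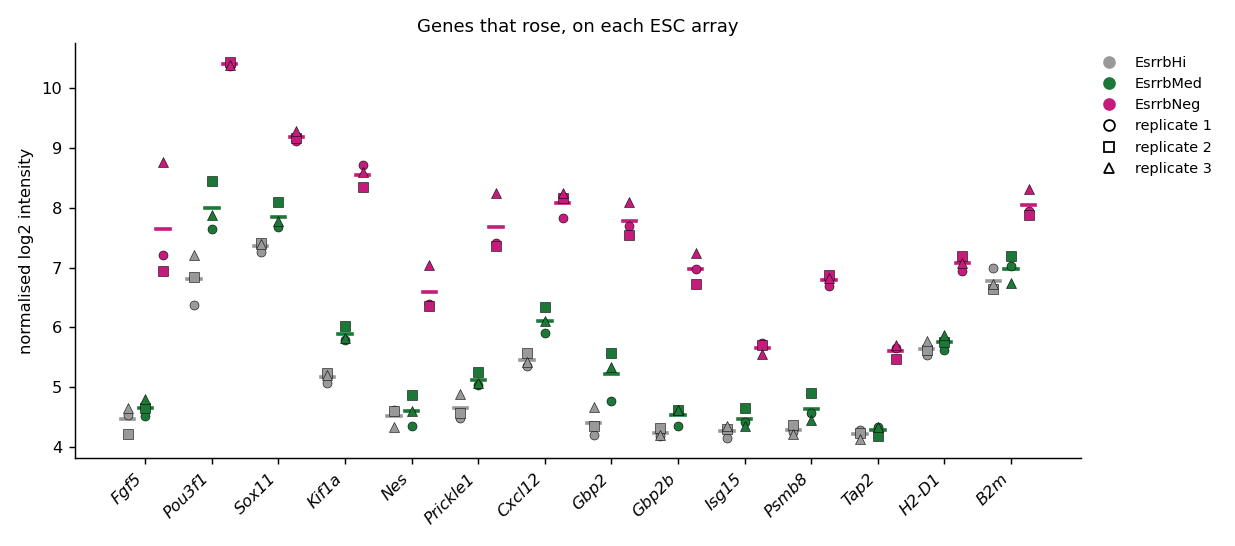
Normalised log2 intensity (vertical axis) of 14 genes that rose, on the 9 ESC arrays. Points are arrays, grey for EsrrbHi, green for EsrrbMed and magenta for EsrrbNeg, with the shape giving the replicate and bars the means of 3 arrays. The EsrrbNeg arrays of Fgf5 lie at 6.95 to 8.76 and those of Kif1a at 8.35 to 8.71, all above the EsrrbMed arrays at 4.52 to 4.80 and 5.79 to 6.03.

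Genes that load peptides onto MHC class I molecules had the highest share of rises among the lists examined. The immunoproteasome cuts proteins into peptides, the TAP transporter carries them into the endoplasmic reticulum, and heavy chains paired with beta-2-microglobulin show them at the surface. Of 18 members that passed the filter, out of 25 on the array, 11 rose (61.1%) and 1 fell (5.56%), against 5.73% and 6.17% of all features. The median change was 0.71. Without EsrrbNeg replicate 3 the counts were the same, although H2-Q7 lost its call and Tapbpl gained one. With quantile normalisation without background correction, and likewise in the authors' table, 5 rose. Psmb8, a catalytic subunit of the immunoproteasome, was 4.57, 4.91 and 4.46 in EsrrbMed and 6.69, 6.88 and 6.83 in EsrrbNeg. It was detected on 1 EsrrbMed array and on all of EsrrbNeg, and rose 4.46-fold (2.16 ± 0.11, adjusted p = 2.94e-08). Its neighbour on chromosome 17 (GRCm38.p6), the transporter subunit gene Tap2, was 4.34, 4.19 and 4.33 in EsrrbMed and 5.66, 5.47 and 5.71 in EsrrbNeg and was at least 1.87-fold higher in EsrrbNeg (adjusted p = 4.46e-07). Tap1, which lies between Psmb9 and Psmb8, was undetected in EsrrbMed and its change was under 1.5-fold (adjusted p = 0.00369).

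The heavy chain gene H2-D1 was 5.63, 5.76 and 5.87 in EsrrbMed and 6.95, 7.19 and 7.07 in EsrrbNeg and rose 2.49-fold (1.32 ± 0.12, adjusted p = 4.47e-06). B2m, the gene of the shared light chain, was 7.02, 7.19 and 6.74 in EsrrbMed and 7.95, 7.87 and 8.32 in EsrrbNeg and rose 2.09-fold (1.06 ± 0.15, adjusted p = 1.23e-04). B2m is often used as a housekeeping gene, and it was the single call among 10 such genes. H2-M5, a non-classical heavy chain gene, went the other way, detected on every EsrrbMed array and on no EsrrbNeg array, where it was at least 1.94-fold lower (adjusted p = 4.96e-06). Class I heavy chains are close in sequence, so a probe may also bind transcripts of a related gene, and the same holds for the pair Gbp2 and Gbp2b below.

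Interferon-induced genes rose more often than they fell. Of 18 that passed the filter, out of 35 on the array, 9 rose (50%) and 3 fell (16.7%), against 5.73% and 6.17% of all features. Their median change was 0.52, or 0.50 with 5 genes at their bound. Among the rises Gbp2b, Gbp3, Isg15 and Oasl2 were undetected in EsrrbMed and passed the filter only through groups in which they were higher. The counts did not change without EsrrbNeg replicate 3, and were 4 and 2 with quantile normalisation without background correction and in the authors' table. The guanylate-binding protein gene Gbp2, at chromosome 3, 142620663-142638008, was 4.77, 5.57 and 5.34 in EsrrbMed and 7.70, 7.54 and 8.10 in EsrrbNeg and rose 5.86-fold (2.55 ± 0.17, adjusted p = 2.57e-07). Gbp2b, beside it at 142594816-142619179, was 4.36, 4.62 and 4.63 in EsrrbMed and 6.97, 6.72 and 7.24 in EsrrbNeg. No EsrrbMed array detected it, and it was at least 4.81-fold higher in EsrrbNeg (adjusted p = 1.19e-07). Gbp3, which precedes Gbp2b on the chromosome, was at least 1.59-fold higher (adjusted p = 1.22e-05). The ubiquitin-like modifier gene Isg15 was 4.42, 4.65 and 4.36 in EsrrbMed and 5.74, 5.70 and 5.55 in EsrrbNeg, at least 1.94-fold higher (adjusted p = 1.93e-05), and Oasl2, of the oligoadenylate synthetase family, at least 1.97-fold (adjusted p = 4.56e-06). Its relative Oas1g was 5.77, 5.85 and 6.11 in EsrrbMed and 4.37, 4.68 and 4.51 in EsrrbNeg. Undetected on every EsrrbNeg array, it was at least 2.41-fold lower there (adjusted p = 8.29e-06), though a second probe changed by −0.52. Irf7, Ifit1 and Mx1 are on the array but did not pass the filter.

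Promoters of the interferon list often held the letters that interferon regulatory factors bind. The list was made of genes that interferon induces, so this describes the list and not the comparison of EsrrbNeg with EsrrbMed. In RefSeq promoters of GRCm38.p6, 250 bases before to 50 after the start of transcription, the core of the interferon-stimulated response element (GAAA, any 2 bases and GAAA again, on either strand) was found for 11 of 16 list members with a promoter and for 2.81% of the 6929 tested genes that had one. Genes that rose held it in 4.93% of 406 promoters and genes that fell in 3.29% of 425. Within the list the letters were also present for Oas1g and Ifitm2, which fell, and for Ifitm3 and Trim21, which were not called. In the MHC class I list 3 of 16 promoters held them, that of B2m included, while those of Psmb8, H2-D1 and H2-K1, which rose, did not. The promoters of Gbp2, Isg15, B2m and Oas1g are printed to show the letters in their place, in lower case and 5′ to 3′ along the gene, with the matching letters in capitals. The first 3 genes rose and Oas1g fell. Gbp2 lies at chr3:142620413-142620712 on the plus strand, Isg15 at chr4:156200769-156201068 on the minus strand, B2m at chr2:122147437-122147736 on the plus strand and Oas1g at chr5:120887564-120887863 on the minus strand. In Gbp2 the match is on the opposite strand, and in Isg15 and Oas1g the capitals cover several matches that overlap.
Gbp2: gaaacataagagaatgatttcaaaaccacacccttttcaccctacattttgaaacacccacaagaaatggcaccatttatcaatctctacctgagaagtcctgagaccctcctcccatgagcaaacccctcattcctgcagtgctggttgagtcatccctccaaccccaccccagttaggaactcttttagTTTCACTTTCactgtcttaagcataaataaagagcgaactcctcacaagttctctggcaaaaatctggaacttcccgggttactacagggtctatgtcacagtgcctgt
Isg15: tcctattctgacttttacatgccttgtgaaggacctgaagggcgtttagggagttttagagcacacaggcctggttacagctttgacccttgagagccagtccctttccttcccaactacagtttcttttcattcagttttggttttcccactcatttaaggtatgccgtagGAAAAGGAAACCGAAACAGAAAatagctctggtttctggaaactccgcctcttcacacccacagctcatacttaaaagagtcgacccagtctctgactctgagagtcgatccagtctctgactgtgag
B2m: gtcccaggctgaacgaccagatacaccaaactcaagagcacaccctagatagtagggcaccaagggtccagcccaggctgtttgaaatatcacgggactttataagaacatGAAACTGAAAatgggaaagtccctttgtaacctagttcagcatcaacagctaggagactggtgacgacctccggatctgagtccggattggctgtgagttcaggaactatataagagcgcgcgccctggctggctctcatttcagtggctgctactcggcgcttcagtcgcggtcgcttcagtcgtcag
Oas1g: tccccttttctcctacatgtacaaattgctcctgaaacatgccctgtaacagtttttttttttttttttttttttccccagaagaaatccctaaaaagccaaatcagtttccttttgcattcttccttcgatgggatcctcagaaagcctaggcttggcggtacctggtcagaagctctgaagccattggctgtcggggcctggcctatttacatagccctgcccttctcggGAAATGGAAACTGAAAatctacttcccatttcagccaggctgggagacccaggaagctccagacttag

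The element bound by ESRRB was rare in these short windows. Its letters, TNAAGGTCA on either strand, were found in 1.18% of 425 promoters of genes that fell, 0.985% of 406 of genes that rose and 0.678% of all 6929. They were in 0 of the 12 naive genes with a promoter in the table. These counts describe letters in the windows and not binding.

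Signalling genes changed on both sides of several pathways. Among 12 FGF ligands, receptors and binding proteins that passed the filter 4 rose and 2 fell. Without EsrrbNeg replicate 3 there were 3 rises and 2 falls, as Fgfbp3 lost its rise (0.34, adjusted p = 0.136). After Fgf5 the largest rise was in Fgf13, an intracellular member of the family (1.23 ± 0.11, adjusted p = 3.58e-06), while Fgf17 (−0.82 ± 0.14, adjusted p = 6.32e-04) and Fgf1, undetected in EsrrbNeg and at least 1.33-fold lower there (adjusted p = 3.98e-05), fell. Genes that answer the kinase ERK gave 3 rises of 13 (23.1%, against 5.73% of all features) and a median of 0.26. Dusp4, a phosphatase that switches ERK off in the nucleus, was 7.0, 7.10 and 7.31 in EsrrbMed and 8.50, 8.58 and 8.77 in EsrrbNeg and rose 2.79-fold (1.48 ± 0.14, adjusted p = 5.74e-06). Dusp6, its cytoplasmic counterpart, was 9.56, 9.61 and 9.83 in EsrrbMed and 10.67, 10.62 and 10.80 in EsrrbNeg and rose 2.04-fold (1.03 ± 0.13, adjusted p = 4.90e-05). The ETS factors Etv4 (0.26) and Etv5 (−0.21) and the inhibitor Spry4 (0.13), which also answer ERK, were not called. Ier3, the third rise, was lost without EsrrbNeg replicate 3 (0.55, adjusted p = 0.0833).

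Bmp4, the ligand that supports self-renewal together with LIF, was 8.23, 8.24 and 8.29 in EsrrbMed and 6.10, 6.19 and 6.54 in EsrrbNeg. The groups did not overlap and it fell 3.94-fold (−1.98 ± 0.26, adjusted p = 8.31e-05), with EsrrbNeg replicate 3 the highest of its group. Its receptor gene Bmpr2 (0.97 ± 0.12, adjusted p = 3.70e-05) and the homeobox target Msx1 (1.13 ± 0.20, adjusted p = 9.91e-04) rose, and the targets Id1 (0.24), Id2 (0.08) and Id3 (0.13) were not called. In the Wnt pathway 5 of 24 rose (20.8%) and 4 fell (16.7%), against 5.73% and 6.17% of all features. Those that fell were Notum, Porcn, the acyltransferase that Wnt ligands need for secretion (−1.51 ± 0.18, adjusted p = 2.91e-05), the receptor gene Fzd5 (−1.26 ± 0.09, adjusted p = 6.10e-07) and the ligand Wnt7b (−0.94 ± 0.17, adjusted p = 7.72e-04). The ligand Wnt8a, undetected in EsrrbMed, was 4.21, 4.21 and 4.21 in EsrrbMed and 5.06, 4.70 and 5.96 in EsrrbNeg and at least 1.45-fold higher in EsrrbNeg (adjusted p = 0.00369), with replicate 3 the highest. Its other probes changed by 0.62 (called) and 0.08 (not called). Nkd2, a feedback inhibitor, rose (0.91 ± 0.12, adjusted p = 1.09e-04). Among 15 Nodal and activin genes 3 rose and 2 fell. Of these Lefty1, a Nodal antagonist, lost its rise (0.52, adjusted p = 0.174) without EsrrbNeg replicate 3, and both falls were lost, that of the ligand gene Nodal (−0.62, adjusted p = 0.0942) and that of Pcsk6, a convertase gene (−0.56, adjusted p = 0.0307, under 1.5-fold). Skil, an inhibitor of SMAD signalling, passed in turn (0.64, adjusted p = 0.0245), which left 3 rises.

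**Figure D3:**
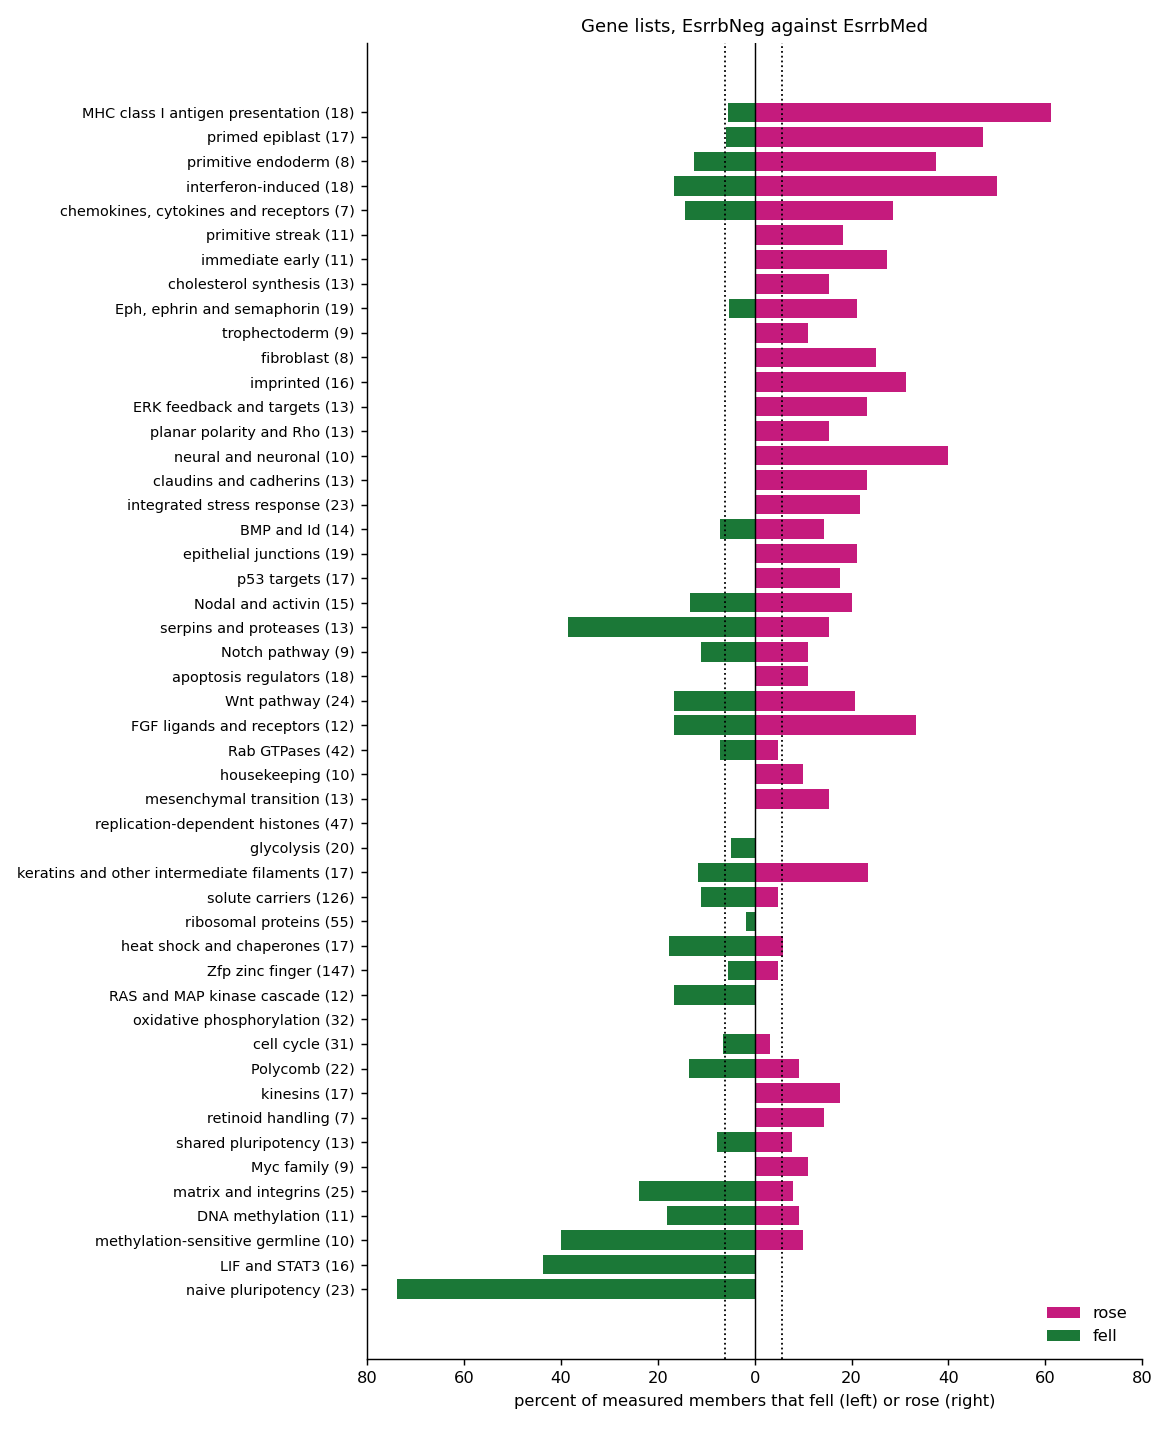
Share of the measured members of each gene list that fell (green, to the left) or rose (magenta, to the right), in percent, ordered by median change, with the number of measured members in parentheses. Dotted lines mark the shares over all features tested, 6.17% fallen and 5.73% risen. The naive list stands at the bottom with 73.9% fallen and the MHC class I list at the top with 61.1% risen.

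Some chromatin regulators fell. Epop, a protein bound to Polycomb repressive complex 2, was 11.32, 11.08 and 11.31 in EsrrbMed and 9.89, 9.62 and 9.82 in EsrrbNeg and fell 2.75-fold (−1.46 ± 0.11, adjusted p = 8.36e-07). Of 22 Polycomb genes 3 fell (13.6%) and 2 rose (9.09%), against 6.17% and 5.73% of all features. Epop fell with Mtf2 (−0.74 ± 0.11, adjusted p = 1.65e-04), another accessory protein of that complex, and Eed (−0.64 ± 0.09, adjusted p = 2.05e-04), a core subunit. Phc2 (0.80 ± 0.10, adjusted p = 3.98e-05) and Yaf2, subunits of the other repressive complex, rose. Of 11 genes of DNA methylation Tet1, the enzyme that oxidises methylcytosine, was 10.30, 10.38 and 10.02 in EsrrbMed and 9.57, 9.24 and 8.89 in EsrrbNeg and fell 2.00-fold (−1.0 ± 0.19, adjusted p = 0.00144). Dppa3, which protects methylation marks after fertilisation, fell 2.48-fold (−1.31 ± 0.12, adjusted p = 4.39e-06), and Uhrf2, a hemimethylation reader, rose (0.88 ± 0.10, adjusted p = 2.45e-05) on the brightest of 4 probes alone. Germline genes that DNA methylation keeps silent gave 4 falls and 1 rise among 10. Without EsrrbNeg replicate 3 the counts were the same, but Tex19.2 lost its fall and Xlr4a gained one. Rhox9, a homeobox gene of the X chromosome, was 7.93, 7.23 and 7.52 in EsrrbMed and 6.09, 5.57 and 5.64 in EsrrbNeg and fell 3.47-fold (−1.80 ± 0.18, adjusted p = 6.59e-06), its neighbour Rhox6 fell 2.49-fold (−1.32 ± 0.14, adjusted p = 1.49e-05), and Tex19.1 fell 1.82-fold (−0.86 ± 0.12, adjusted p = 1.04e-04).

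Imprinted genes gave 5 rises among 16 and no fall, with 7 higher and 1 lower at an unadjusted p under 0.05 in limma. Grb10, an inhibitor of insulin and growth factor signalling, was 8.74, 8.68 and 8.72 in EsrrbMed and 10.22, 9.88 and 10.27 in EsrrbNeg and rose 2.65-fold (1.40 ± 0.11, adjusted p = 1.11e-06). Ndn, which encodes necdin, rose 2.14-fold (1.10 ± 0.11, adjusted p = 6.85e-06). Dlk1, a Notch ligand homologue, rose 1.97-fold (0.98 ± 0.15, adjusted p = 2.31e-04). Cdkn1c, a brake on the cell cycle, rose 1.66-fold (0.73 ± 0.11, adjusted p = 2.05e-04). Gnas rose on 3 of its 4 probes.

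Of epithelial junction genes 4 of 19 rose. The simple epithelial keratins were Krt18, at 5.41, 5.65 and 5.50 in EsrrbMed and 6.82, 6.68 and 6.68 in EsrrbNeg, which rose 2.31-fold (1.21 ± 0.12, adjusted p = 6.52e-06), and its partner Krt8, which rose 2.17-fold (1.12 ± 0.14, adjusted p = 5.74e-05). The tight junction genes Marveld3, at least 1.78-fold higher (adjusted p = 1.30e-04), and Cldn6 (0.69 ± 0.13, adjusted p = 0.00112) were the others. Cdh1, the gene of E-cadherin, changed by 0.33 (adjusted p = 0.0837). Genes of mesenchymal transition gave 2 rises of 13, the matrix protease gene Mmp2 (0.93 ± 0.13, adjusted p = 1.57e-04) and Twist1, undetected in EsrrbMed, whose change was under 1.5-fold without EsrrbNeg replicate 3 (adjusted p = 0.0221). Both are on the fibroblast list as well, which had 12 of 16 members undetected on every EsrrbMed array and 10 of 16 on every EsrrbNeg array, with a summed linear intensity of 769 to 792 in EsrrbMed and of 770 to 1049 in EsrrbNeg, and the part of such cells in these rises was not tested.

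Of 32 oxidative phosphorylation genes 0 were called by limma in either direction, with 2 higher and 6 lower at an unadjusted p under 0.05, and Atp5b, a subunit gene of the ATP synthase, changed by 0.00 ± 0.08. Of 47 replication-dependent histone genes 0 were called, with 2 higher and 1 lower at an unadjusted p under 0.05. Of 55 ribosomal protein genes 1 fell, Rpl3l, the striated muscle relative of Rpl3. Among 31 cell cycle genes Ccnd3, a D-type cyclin (−0.73 ± 0.11, adjusted p = 2.56e-04), and E2f2 (−0.73 ± 0.11, adjusted p = 2.55e-04) fell and Cdkn1c rose. These made 6.45% of the list down and 3.23% up, against 6.17% and 5.73% of all features. Of 20 glycolysis genes Pfkp, a phosphofructokinase, fell (−1.17 ± 0.17, adjusted p = 1.53e-04), which was 5% of the list and near the share of all features. Without EsrrbNeg replicate 3 the cyclin gene Ccnd2 (−0.72, adjusted p = 0.021) and the aldolase gene Aldoc (−0.77, adjusted p = 0.0117) fell too and the cyclin gene Ccne2 rose (0.63, adjusted p = 0.0101). Heat shock genes gave 3 falls and 1 rise of 17, led by Dnajc6, an auxilin that uncoats clathrin vesicles, at 7.69, 7.36 and 7.99 in EsrrbMed and 5.56, 5.63 and 5.96 in EsrrbNeg (−1.96 ± 0.12, adjusted p = 1.74e-07), and the small heat shock genes Hspb8 (−1.11 ± 0.13, adjusted p = 3.20e-05) and Hspb1 (−0.95 ± 0.14, adjusted p = 2.34e-04). The 1 rise, of the cochaperone gene Bag3 (0.64 ± 0.14, adjusted p = 0.00293), was lost without EsrrbNeg replicate 3 (0.53, adjusted p = 0.026, under 1.5-fold).

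Solute carriers gave 14 falls (11.1%) and 6 rises (4.76%) among 126 that passed the filter, where 6.17% of all features fell and 5.73% rose. Slc66a2, a PQ-loop protein gene, was 7.70, 7.58 and 8.01 in EsrrbMed and 5.83, 5.72 and 6.27 in EsrrbNeg and fell 3.54-fold (−1.82 ± 0.12, adjusted p = 2.07e-07). Other falls were in Slc25a12, a mitochondrial carrier that exchanges aspartate for glutamate (−1.56 ± 0.09, adjusted p = 1.34e-07), Slc25a20, which imports acylcarnitine (−1.05 ± 0.12, adjusted p = 2.02e-05), and Slc25a36, a carrier of pyrimidine nucleotides (−0.92 ± 0.10, adjusted p = 2.33e-05). Slc5a5, the sodium iodide symporter gene, rose (1.07 ± 0.12, adjusted p = 1.73e-05). Serpin and protease genes gave 5 falls and 2 rises of 13, although the median change was 0.14. Serpinb6c was 6.59, 6.35 and 6.73 in EsrrbMed and 4.54, 4.53 and 4.68 in EsrrbNeg and fell 3.92-fold (−1.97 ± 0.12, adjusted p = 1.22e-07), and Pga5, a pepsinogen gene, fell 4.60-fold (−2.20 ± 0.19, adjusted p = 2.44e-06). Serpinh1, the collagen chaperone gene, rose 2.50-fold (1.32 ± 0.13, adjusted p = 9.01e-06), and the other rise, of Serpinf1, was lost without EsrrbNeg replicate 3 (0.60, adjusted p = 0.102).

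To ask whether these changes belonged to this step or had begun while Esrrb was still on, the change from EsrrbMed to EsrrbNeg was set against that from EsrrbHi to EsrrbMed, and the difference of the 2 changes was tested in the same model. The EsrrbMed arrays enter both changes, so their values are given side by side and their relation is no result. From EsrrbHi to EsrrbMed 53 features rose (0.478%) and 78 fell (0.703%), 1.18% in all. The 2 changes differed for 546 features (4.92%), and the second change was the higher for 230 of these (2.07%) and the lower for 316 (2.85%). This count was 249, 294 and 147 without EsrrbMed replicate 1, 2 and 3.

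Zfp42 had the largest difference after Esrrb. It changed by −0.23 in the first step and by −3.37 in the second (difference −3.14, adjusted p = 4.13e-05). Klf4 changed by −0.26 and then by −2.61 (difference −2.35, adjusted p = 0.00635). Tcl1 and Tfcp2l1 had fallen in the first step already, with changes of −0.83 and −0.76, and then fell further, with −3.12 and −3.13 (differences −2.28, adjusted p = 1.91e-05, and −2.37, adjusted p = 1.03e-04). Lgals3 (−0.62, then −3.31) and Mylpf (−0.46, then −2.99) had differences of −2.69, adjusted p = 1.12e-06, and −2.53, adjusted p = 0.00208. In the whole naive list 12 of 23 genes had a lower second change, where 2.85% of all features did. Esrrb, whose levels were set by the sort, is one of the 12.

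In the other direction the rule named 8 genes. Fgf5 and Gbp2b were detected on no EsrrbHi or EsrrbMed array and on every EsrrbNeg array. Their differences passed the test (adjusted p = 0.00252 and 4.14e-04), and no size is given for them. Nes, detected on 1 of these 6 EsrrbHi and EsrrbMed arrays, also passed (adjusted p = 0.00368). Prickle1, detected on 1 EsrrbHi array, changed by 0.48 and then by 2.55 (difference 2.07, adjusted p = 0.00696). Kif1a was called in both steps, at 0.71 and 2.67 (difference 1.96, adjusted p = 1.41e-04). Efna5, Miat, a long noncoding RNA gene, and Hmgn3, a nucleosome-binding protein gene, were the others, at −0.19, −0.22 and −0.03 in the first step and 1.65, 1.64 and 1.82 in the second.

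Some genes were called in both steps without a difference that passed the test, and the following were picked among the named genes for this. Pou3f1 rose by 1.18 and then by 2.40 (difference 1.22, adjusted p = 0.0643). Ddit4, an inhibitor of mTORC1 induced by stress, rose by 1.21 and by 1.12 (difference −0.09, adjusted p = 0.933), and Cdkn1c by 0.85 and 0.73 (difference −0.12, adjusted p = 0.798). Kit, the receptor of stem cell factor, changed by −1.11 and −0.94 (difference 0.17, adjusted p = 0.803), Itga9 by −1.07 and −0.92 (difference 0.15, adjusted p = 0.883) and Notch4, a Notch receptor gene, by −1.03 and −1.51 (difference −0.48, adjusted p = 0.31). Itga9 was detected on 1 of the 3 EsrrbNeg arrays, so its second change ended near the limit of detection and may be understated. A difference that misses the threshold does not show that the steps were equal.

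EsrrbNeg replicate 3 differed from the other EsrrbNeg arrays in the genes of gastrulation. Of 22 primitive streak genes on the array 2 to 3 were detected on each EsrrbMed array, 6 and 4 on EsrrbNeg replicates 1 and 2, and 10 on replicate 3. Their summed linear intensity was 496 to 503 in EsrrbMed, 536 and 503 in EsrrbNeg replicates 1 and 2, and 917 in replicate 3. Mixl1, Wnt3, Wnt3a, Mesp1, Mesp2, Foxa2 and Sox17 were detected on none of the 6 arrays. Fst, a secreted activin inhibitor, was 4.42, 4.44 and 4.62 in EsrrbMed and 5.41, 5.30 and 7.15 in EsrrbNeg. All EsrrbNeg arrays lay above EsrrbMed, which did not detect it, and it was at least 2.37-fold higher (adjusted p = 0.00443) and called also without replicate 3 (adjusted p = 0.0257). Cdx2, a caudal factor of the posterior streak and the trophectoderm, was 4.51, 4.63 and 4.40 in EsrrbMed and 5.15, 4.88 and 6.50 in EsrrbNeg. Its rise was lost without replicate 3 (adjusted p = 0.148). Of the 11 members that passed the filter Fst and Cdx2 were the 2 that rose, and without replicate 3 Fst rose and Evx1, a homeobox gene of the posterior streak, fell (−0.81, adjusted p = 0.00619).

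Other members, named here after their values were seen, were high on replicate 3. Gsc, a homeobox gene of the organizer, was 4.50, 4.73 and 6.31 in EsrrbNeg, Fgf8, a ligand of the streak, 4.48, 4.22 and 6.10 and Eomes, a T-box factor, 4.42, 4.29 and 5.67, each with EsrrbMed arrays between 4.25 and 4.67. Sp5, a target of Wnt, was 5.77, 5.60 and 5.63 in EsrrbMed and 5.80, 5.57 and 6.97 in EsrrbNeg. None of the 4 was called. Over those that passed the filter the median change of the list was 0.03 on chip 1 and 1.34 on chip 2.

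**Figure D4:**
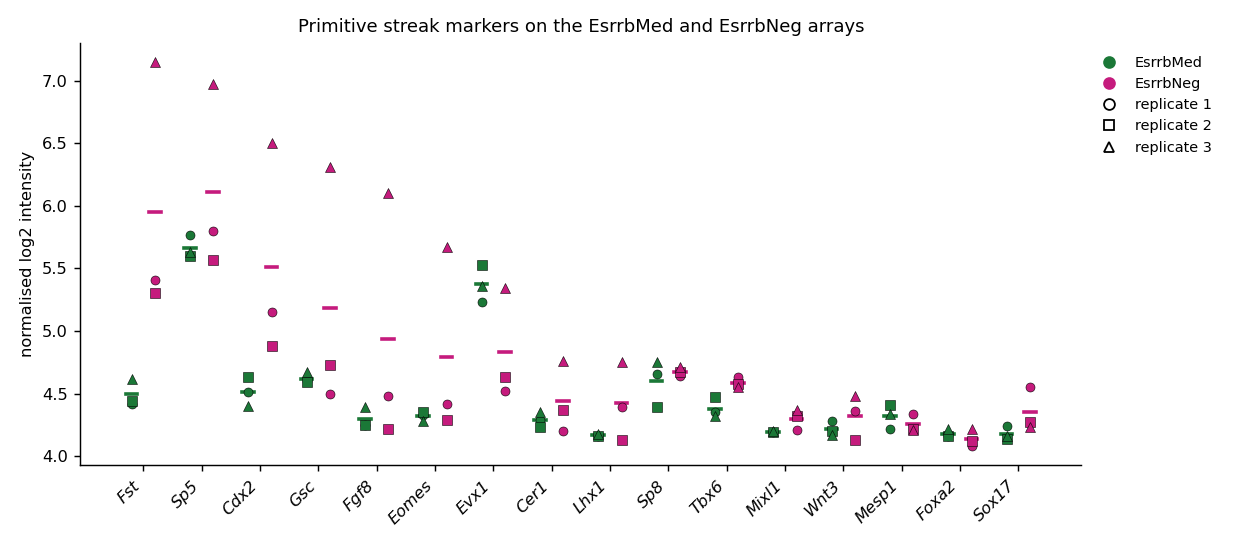
Normalised log2 intensity (vertical axis) of 16 primitive streak genes on the 3 EsrrbMed (green) and 3 EsrrbNeg (magenta) arrays, with the shape of a point giving the replicate and bars the group means. Triangles, the arrays of replicate 3, stand apart in EsrrbNeg, at 7.15 for Fst, 6.50 for Cdx2, 6.31 for Gsc and 6.10 for Fgf8.

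Chip 2 carried 1 array of each ESC group, so replicate 3 and chip 2 cannot be told apart. All 1319 called features had the same sign on both chips. The calls were made on the change over both chips, so this agreement follows largely from the selection and is no separate support. For 156 of these 1319 the change on chip 2 and that on chip 1 differed at an unadjusted p under 0.05 in limma. The same held for 702 of all 11089 features, a smaller share than among the calls. After adjustment 1 feature differed (0.00902% of those tested), a probe without a gene name that was no call between the groups. For Fgf5 the difference between chips had an adjusted p of 0.194, and Prickle1 changed by 2.24 on chip 1 and 3.17 on chip 2 (adjusted p = 0.769). Kif1a (2.62 and 2.76), Pou3f1 (2.35 and 2.50) and Psmb8 (2.05 and 2.37) changed by similar amounts on both. Of the 171 called genes that the rule in the processing account names, 16 lost their call without EsrrbNeg replicate 3, among them Sox2, Nodal, Lefty1, Cdx2, Ier3 and Cish above.

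**Figure D5:**
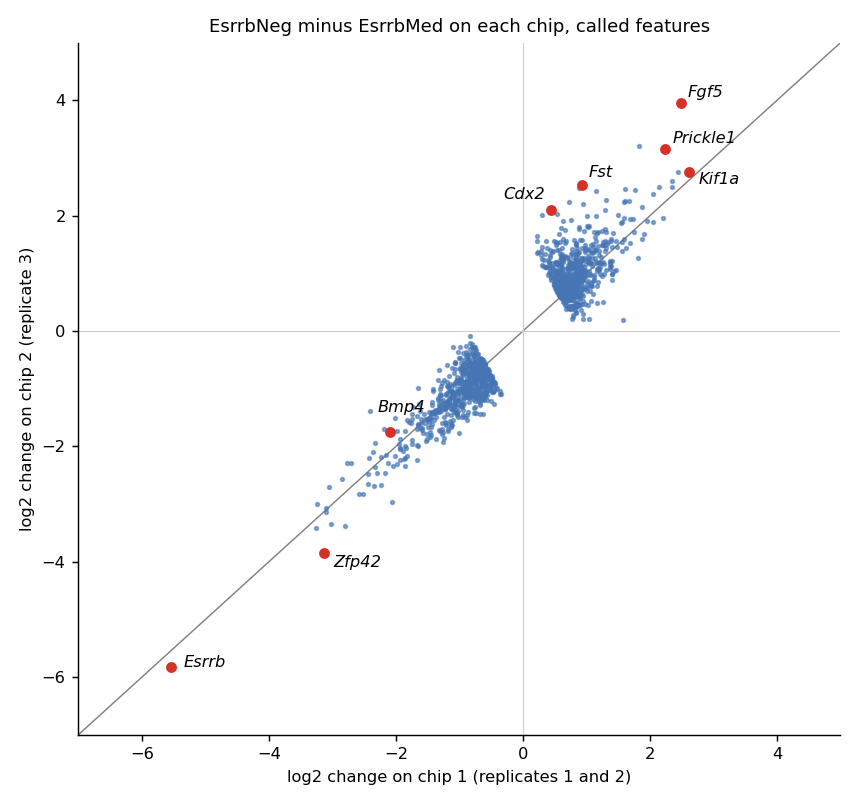
Log2 change from EsrrbMed to EsrrbNeg on chip 1 (horizontal axis, replicates 1 and 2) and on chip 2 (vertical axis, replicate 3) for the 1319 called features, each a point, with a line where the 2 are equal and 8 genes marked in red. All points lie in the lower left or upper right quadrant, which the selection of calls over both chips favours. Prickle1 (2.24 and 3.17) lies above the line, as do Fgf5, Fst and Cdx2, which no EsrrbMed array detected and which are plotted as fitted.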

How the data were processed

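RNA of 3 EsrrbHi, 3 EsrrbMed, 3 EsrrbNeg and 3 EpiSC samples was hybridised to 12 Illumina MouseWG-6 v2 arrays on 2 chips. The deposited intensity of each of 45281 probes was summarised by the authors from bead-level data and was neither background corrected nor normalised, and a deposited detection p-value compares each probe with negative control beads. The deposited log2 table of the authors, used as an alternative, covered 38563 probes and had been quantile normalised and corrected for batch with ComBat. Tool versions are not given in the sources used here.

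Intensities were background corrected from the detection p, given an offset of 16, quantile normalised over all 12 arrays (neqc of limma 3.58.1, R 4.3.3) and put on a log2 scale. Probes were kept where every array of some group had a detection p no higher than 0.01. The probe with the highest mean stood for a gene, which left 11089 features, 8487 of them with a gene symbol from the platform annotation. A linear model with group and chip was fitted over the 12 arrays (lmFit, eBayes, residual df 7), with Benjamini-Hochberg adjustment over all features. Calls needed an adjusted p of at most 0.05 and 1.5-fold. The same model gave the difference between steps, and a model with each group on each chip gave the difference between chips. Bounds, list counts and medians were computed from these values, and promoters were searched in Python 3.11.15, with figures drawn in matplotlib 3.10.9. The model was tested on simulated data.

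The named genes were the 15 largest rises and 15 largest falls without overlap between arrays, Esrrb, Nanog, Pou5f1 and Sox2, up to 6 called members of each gene list (where none was called, the member with the highest mean), and the 8 called genes with the largest difference in each direction for the other contrasts. These members and lists were chosen with earlier results of these data known. Same-numbered EsrrbMed and EsrrbNeg arrays deviated together from their group means (r = 0.410, 0.371 and 0.415) and differently numbered ones did not (r from −0.283 to −0.0374). Deviations cancel within a group, so the negative values follow in part from the positive ones, and replicate 3 also differs by chip. EsrrbHi replicate 2 and EsrrbMed replicate 1 correlated as well (r = 0.227). The numbers, taken from the labels, were read as a pairing and entered as a block in an alternative. Alternatives changed the normalisation, offset, filter, probe choice, fold, arrays, chip term and block, or left out each EsrrbMed or EsrrbNeg array in turn. The number of arrays limits the precision.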

Additional observations from a re-analysis of the deposited data

Results flagged for a closer look

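The difference between EsrrbNeg and EsrrbMed was not the same on both chips for 1 feature, tested as the difference of the 2 differences in limma. The probe ILMN_2762935, which has no gene name in the platform annotation, was 10.34, 10.05 and 9.35 in EsrrbMed and 9.04, 9.03 and 10.29 in EsrrbNeg. It was lower in EsrrbNeg on chip 1 (−1.16) and higher on chip 2 (0.95), a difference of 2.11. Replicate 3 thus ran against replicates 1 and 2, and the change over both chips was −0.46 (adjusted p = 0.301 in limma), which was no call.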

How the results depend on the processing

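Against 1319 calls (635 rose, 684 fell), 430 (158, 272) were made with quantiles and no background correction, 693 (294, 399) with an offset of 50, 424 (159, 265) in the authors' log2 table, 771 (371, 400) with chip 2 arrays only and 416 (167, 249) at 2-fold. A larger offset or an uncorrected background shrinks fold changes by construction, and the chip 2 fit has 1 array of each ESC group and takes its spread from the EpiSC arrays. Leaving out single arrays gave 1254 to 1431 calls (591 to 744 rose, 660 to 714 fell). Of 171 called named genes 66 kept their call under all 22 alternatives, 29 lost it without some array and 16 without EsrrbNeg replicate 3. The 546 differences between steps became 225 with quantiles and no background correction, 196 with median scaling, 314 with no filter, 255 in the authors' table, 358 with no chip term, 162 with chip 1 arrays, 0 with chip 2 arrays in limma and 225 at 2-fold, and 147 to 608 with single arrays left out. The cause was not tested. The 1 difference between chips became 0 with median scaling, 0 with no filter and 2 with an offset of 50, and 0 to 2 without single arrays. The value of ILMN_2762935 reversed to 0.96 with chip 2 arrays only, where replicate 3 alone enters. With the replicate number as a block for the pairing, 1353 features (ESC arrays) and 1346 features (EsrrbMed and EsrrbNeg arrays) were called, the differences between steps numbered 770, and no named gene lost its call. Of 150 list counts and medians 72 moved under some alternative. With quantiles and no background correction, and in the authors' table, the primed epiblast rises went from 8 to 3, the MHC class I rises from 11 to 5, the interferon-induced rises from 9 to 4, the LIF falls from 7 to 4 and the Wnt rises from 5 to 0 in limma, while the naive falls went from 17 to 16. Low signal over background limits the dim genes. Bounds are given only for genes detected on no array of a group. Pga5, Serpinb6c, Rhox6, Itgb7 and Itga9 were detected on 1 of the 3 EsrrbNeg arrays, and Scarf2 and Nkd2 on 1 of the 3 EsrrbMed arrays. Their changes are given in full although 1 of the groups was near the limit of detection.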

Other observations

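Some gene groups not described above also held calls. Of 8 primitive endoderm genes that passed the filter 3 rose, the endocytic adaptor gene Dab2, at 5.14, 5.06 and 5.57 in EsrrbMed and 6.75, 6.38 and 6.62 in EsrrbNeg (1.33 ± 0.16, adjusted p = 4.21e-05), the receptor gene Lrp2 (0.80 ± 0.16, adjusted p = 0.00221) and its partner Amn (0.75 ± 0.14, adjusted p = 0.00122), while the apolipoprotein gene Apoe fell (−0.91 ± 0.10, adjusted p = 1.52e-05). The defining factors Gata4, Gata6, Sox17 and Sox7 were detected on no array of either group, and the summed linear intensity of the list was 1183 to 1321 in EsrrbMed and 1296 to 1428 in EsrrbNeg. The part of such cells in these values was not tested.

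Genes of the integrated stress response gave 5 rises among 23 and no fall, with 10 higher and 2 lower at an unadjusted p under 0.05 in limma. Without EsrrbNeg replicate 3 there were 3 rises and 1 fall, in the mitochondrial serine enzyme gene Shmt2 (−0.60, adjusted p = 0.00644). Ddit4 was 7.48, 8.01 and 7.49 in EsrrbMed and 8.49, 8.79 and 9.06 in EsrrbNeg and the factor gene Cebpb was 6.63, 6.73 and 6.39 in EsrrbMed and 7.61, 7.41 and 7.62 in EsrrbNeg (0.96 ± 0.11, adjusted p = 2.56e-05). The serine synthesis genes Phgdh (0.63 ± 0.10, adjusted p = 2.64e-04) and Psat1 (0.67 ± 0.14, adjusted p = 0.00216) rose as well. The calls of Psat1 and of the secreted factor gene Stc2 were lost without EsrrbNeg replicate 3 (0.49, adjusted p = 0.018, and 0.52, adjusted p = 0.141). The list had a median change of 0.00 on chip 1 and 0.67 on chip 2. Immediate early genes gave 3 rises among 11, led by the matricellular gene Ccn1 (1.18 ± 0.17, adjusted p = 1.38e-04).

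Among 147 measured zinc finger genes with Zfp symbols 7 rose and 8 fell, near the 5.73% and 6.17% of all features. After Zfp42 the largest falls were in Zfp710 (−1.45 ± 0.11, adjusted p = 9.68e-07) and Zfp296 (−1.42 ± 0.14, adjusted p = 7.04e-06). Among 42 Rab GTPase genes 2 rose (4.76%) and 3 fell (7.14%), also near those shares, with Rab27a, which acts in exocytosis, at 7.44, 7.34 and 7.41 in EsrrbMed and 6.0, 6.18 and 6.32 in EsrrbNeg (−1.23 ± 0.11, adjusted p = 2.40e-06). Pcdh1, a protocadherin gene, was 4.79, 4.73 and 4.67 in EsrrbMed and 6.53, 6.45 and 6.62 in EsrrbNeg and rose (1.80 ± 0.12, adjusted p = 2.48e-07).

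Genes of cells like the 2-cell embryo did not pass the filter. Zscan4c, named after its values were seen, was 5.39, 4.70 and 4.80 in EsrrbMed and 7.04, 5.64 and 4.58 in EsrrbNeg, with EsrrbNeg replicate 1 the highest array.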
